A study of Mus musculus with 8 samples.

Results

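The 5 genes described here are those that stand for red blood cells in ventricular tissue: the adult alpha-globin genes Hba-a1 and Hba-a2, the adult beta-globin genes Hbb-bs and Hbb-bt, and Alas2, which encodes the erythroid form of the first enzyme of heme synthesis. They were found by their symbols, and all 5 were among the 43346 genes of the count table and among the 16111 genes that passed a filter on low counts. RNA was sequenced from the cardiac ventricles of 8 male C57BL/6 mice. At 7 weeks of age, 4 mice received 1000000 LLC1 cells, a mouse Lewis lung carcinoma line, under the skin of the left flank, and 4 mice received the PBS vehicle alone. Tissue was taken 14 days later, and tumor-bearing and vehicle-injected mice are called LLC1 and PBS below, each with the replicate code of its label.

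Hemoglobin carries oxygen and consists of paired alpha and beta globin chains, each holding a heme group. Developing erythroid cells fill with globin mRNA, and the reticulocytes that enter the blood still hold it after the nucleus is lost, so hemoglobin transcripts in a solid organ are widely read as a measure of the blood it contains. Cardiac muscle itself uses myoglobin, another heme protein, for oxygen, and makes its heme from ALAS1 rather than ALAS2. The sources used here do not say whether the ventricles were rinsed or perfused before freezing. In whole tissue, fewer cells of a type and less RNA per cell cannot be told apart.

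The gene table held between 12480706 and 19747596 counts per mouse, so that a level of 1 CPM (counts per 1000000 counts) stood for 12 to 20 counts. Levels are CPM after scaling with TMM factors, and p-values measure the spread between the 4 mice of each group. Defining markers of cardiac muscle were abundant in each library, with the 10 cardiomyocyte genes together at 122018 to 131907 CPM in LLC1 and 113135 to 125327 CPM in PBS mice. PBS 1-1 was the shallowest library and also had the lowest ratio of alpha to beta globin counts, which is given below with and without it.

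Promoter sequences of the 5 genes are shown first as background, and whether they bear on the levels in these ventricles was not tested. In RefSeq, on mouse genome build GRCm38.p6, the 250 bases before the start of every one of the 5 genes held both the letters GATAA, the core of the sites read by GATA1, and the letters CACCC, the core of the sites read by KLF1, on either strand. GATAA occurred in 22.6% of the 32851 promoter windows of this length in the table, CACCC in 52.0%, and both in 10.1%. The letters CCAAT, found in 33.8% of all windows, were present before the 4 globin genes and absent before Alas2, and TATAA (22.8% of windows) stood 27 to 30 bases before the start of each globin gene but only 207 and 208 bases before that of Alas2, where 1 stretch matched on both strands. Hbb-bt held a further TATAA match 229 bases before its start, and 3 matches to CACCC stood end to end in a G-rich repeat before Alas2. The window of Hba-a1 repeated that of Hba-a2 almost letter for letter and is not printed. Capitals mark these 4 motifs on either strand. The windows are chr11:32296242-32296491 on the plus strand for Hba-a2, chr7:103827929-103828178 on the minus strand for Hbb-bs and chrX:150547167-150547416 on the plus strand for Alas2. These matches describe letters and do not show that a factor was bound.
Hba-a2: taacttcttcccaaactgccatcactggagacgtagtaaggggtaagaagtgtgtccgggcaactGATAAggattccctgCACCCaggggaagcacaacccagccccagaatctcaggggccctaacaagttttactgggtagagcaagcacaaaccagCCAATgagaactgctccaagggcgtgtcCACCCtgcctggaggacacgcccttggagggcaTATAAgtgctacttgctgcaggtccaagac
Hbb-bs: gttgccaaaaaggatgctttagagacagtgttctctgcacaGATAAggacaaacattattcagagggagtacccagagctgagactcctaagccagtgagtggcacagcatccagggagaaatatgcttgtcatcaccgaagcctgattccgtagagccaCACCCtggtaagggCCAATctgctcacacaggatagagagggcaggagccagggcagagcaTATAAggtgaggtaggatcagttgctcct
Alas2: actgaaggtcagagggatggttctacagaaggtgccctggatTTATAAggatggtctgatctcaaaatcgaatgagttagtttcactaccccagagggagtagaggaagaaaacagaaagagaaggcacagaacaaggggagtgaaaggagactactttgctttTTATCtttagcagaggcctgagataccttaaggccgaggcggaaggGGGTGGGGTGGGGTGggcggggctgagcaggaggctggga

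Both globin pairs are near copies, which bears on how far their separate counts can be trusted. Hba-a1 (ENSMUSG00000069919, chr11:32283511-32284465) and Hba-a2 (ENSMUSG00000069917, chr11:32296489-32297298) lie on the plus strand, and their coding sequences in GENCODE release M21 differed at 1 of 426 bases. Hbb-bs (ENSMUSG00000052305, chr7:103826534-103828096) and Hbb-bt (ENSMUSG00000073940, chr7:103812524-103813996) lie on the minus strand, and their coding sequences differed at 1 of 441 bases. The 60 coding bases that hold the difference follow, all of them in the last exon, with the differing base in capitals. They lie at chr11:32284313-32284372 for Hba-a1, chr11:32297130-32297189 for Hba-a2, chr7:103826668-103826727 for Hbb-bs and chr7:103812659-103812718 for Hbb-bt.
Hba-a1: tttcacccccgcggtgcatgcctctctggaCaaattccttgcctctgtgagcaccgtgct
Hba-a2: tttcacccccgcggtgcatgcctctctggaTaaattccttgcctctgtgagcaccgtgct
Hbb-bs: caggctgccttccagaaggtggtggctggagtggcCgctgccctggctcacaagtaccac
Hbb-bt: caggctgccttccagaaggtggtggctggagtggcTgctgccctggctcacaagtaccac
Of all stretches of 150 bases, the read length, 48.4% of those in the annotated Hba-a1 transcript also occurred in Hba-a2 and 65.7% of those in Hba-a2 occurred in Hba-a1. For the beta genes the shares were 58.7% of Hbb-bs and 50.7% of Hbb-bt. How reads that map to more than 1 gene were counted is not given in the sources used here, so the split within each pair is uncertain. The sums of the alpha pair and of the beta pair do not depend on that split. Whether shared reads were left out of these sums is not known either. Alas2 (ENSMUSG00000025270, chrX:150547375-150570638, plus strand, 11 exons) has no such copy, but 15.5% of its exonic bases overlap Apex2 or Mir3620, and without a stated strand setting reads there cannot be assigned to 1 gene.

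Hemoglobin transcripts differed more between mice of the same group than between the groups. The 4 globin genes together stood at 5080, 2579, 1398 and 1800 CPM in LLC1 1-2, 1-3, 1-5 and 2-2, and at 1582, 1516, 3027 and 2060 CPM in PBS 1-1, 1-3, 2-1 and 2-5. LLC1 1-2 was the highest and LLC1 1-5 the lowest of all 8 mice, 3.63-fold apart, and the PBS values lay between them. Mean levels were 2714 ± 1652 CPM (SD, n = 4) in LLC1 and 2046 ± 697 CPM (SD, n = 4) in PBS mice, a ratio of 1.33. The difference of the group means of log2 CPM was 0.28, and without LLC1 1-2 it was -0.08, so its direction turned on that mouse. As a share of all counts, hemoglobin took from 0.135% (95% Wilson interval 0.133 to 0.137) in LLC1 1-5 to 0.488% (0.485 to 0.491) in LLC1 1-2. These intervals cover counting error only and are narrow beside the distance between mice.

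Among the alpha genes, Hba-a1 stood at 1306, 692, 370 and 478 CPM in the LLC1 mice, in the order given above, and at 368, 387, 805 and 532 CPM in the PBS mice. Hba-a2 stood at 867, 456, 239 and 314 CPM in LLC1 and at 199, 251, 519 and 337 CPM in PBS mice. For both genes LLC1 1-2 was highest, PBS 2-1 was the highest of its group, and the groups overlapped. The fold change of Hba-a1, LLC1 over PBS, was 1.36 (95% interval 0.805 to 2.29), a log2 fold change of 0.44 ± 0.35 (SE), with an FDR of 0.458 in edgeR's quasi-likelihood test. That of Hba-a2 was 1.44 (0.827 to 2.49), a log2 fold change of 0.52 ± 0.37 (SE, edgeR FDR 0.4004).

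The beta genes followed the same order of mice at the top. Hbb-bs stood at 1847, 894, 501 and 641 CPM in LLC1 and at 665, 552, 1081 and 758 CPM in PBS mice. Hbb-bt stood at 1060, 537, 288 and 366 CPM in LLC1 and at 350, 326, 622 and 433 CPM in PBS mice. LLC1 1-2 was again highest, and LLC1 1-5 was lowest, with all PBS values between them. The fold change was 1.27 for Hbb-bs (95% interval 0.764 to 2.11, log2 fold change 0.34 ± 0.34 SE, edgeR FDR 0.560) and 1.30 for Hbb-bt (0.779 to 2.17, log2 fold change 0.38 ± 0.34 SE, edgeR FDR 0.520).

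Alas2 mRNA, which is made mainly in erythroid cells, stood at 99.7, 56.6, 30.4 and 37.3 CPM in LLC1 and at 35.9, 39.8, 69.97 and 52.1 CPM in PBS mice. The highest and lowest mice were those of the beta globins, LLC1 1-2 and LLC1 1-5. Its fold change was 1.12 (95% interval 0.693 to 1.81), a log2 fold change of 0.17 ± 0.32 (SE, edgeR FDR 0.786). The 5 genes are plotted by mouse.

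**Figure D1:**
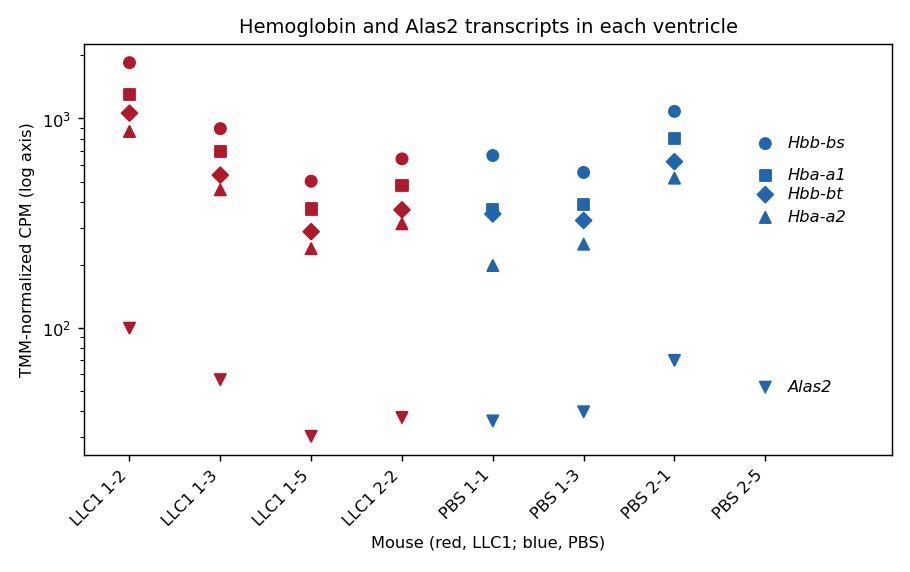
Level of each gene in each mouse, in TMM-normalized CPM on a log axis, with LLC1 mice in red, PBS mice in blue and a marker shape for each gene. All 5 genes peaked in LLC1 1-2 (Hbb-bs at 1847 CPM, Alas2 at 99.7 CPM), and PBS 2-1 was the highest of the PBS mice for each.

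No difference between LLC1 and PBS mice was called for the hemoglobin genes or Alas2. At an FDR under 0.05, 0 of the 5 genes passed, where 8.73% of the 16111 genes tested did. The unadjusted p-values in edgeR ran from 0.179 for Hba-a2 to 0.613 for Alas2, so 0 of 5 were under 0.05, and DESeq2 and limma-voom also called 0. A two-sided exact permutation test, which enumerates all 70 ways to divide the mice, gave p-values from 0.457 for Hba-a2 to 0.857 for Alas2 with 4 mice per group, where the smallest p it allows is 0.0286. The CPM of the groups overlapped for all 5 genes, while 17.2% of genes tested had groups that did not overlap. The 95% interval of every fold change above spans 1.

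The direction rested on 1 mouse for 4 of the 5 genes. Without LLC1 1-2, the log2 fold change was -0.03 for Hba-a1, -0.17 for Hbb-bs, -0.13 for Hbb-bt and -0.27 for Alas2, and that of Hba-a2 was 0.04. With any other mouse left out, the log2 fold changes of the 5 genes were above 0 and reached 0.83 for Hba-a2.

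**Figure D2:**
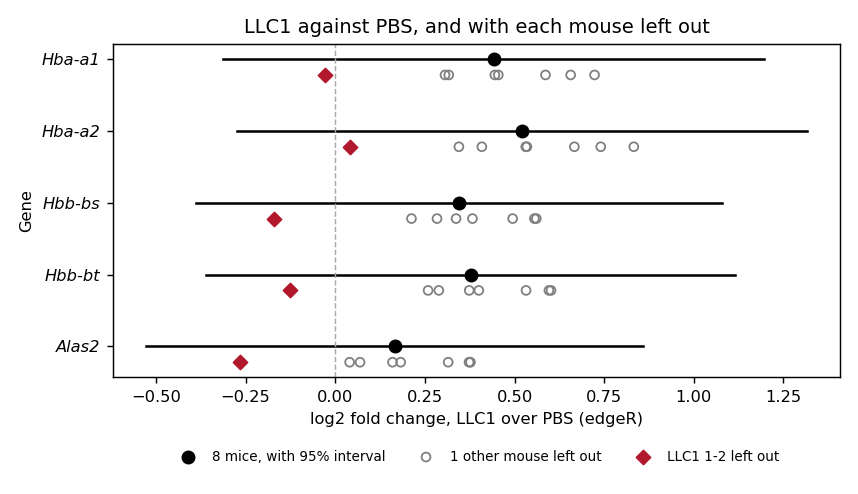
Log2 fold change of each gene, LLC1 over PBS, from edgeR, with the 95% interval for all 8 mice (black), the value without LLC1 1-2 (red diamond) and the values with each other mouse left out (open circles). Every interval spans 0, and the red diamond lies below 0 for 4 of the 5 genes, the exception being Hba-a2 at 0.04.

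Levels of different genes were compared per kilobase of the length given in the table. Hbb-bs was highest, at 1125 ± 703 CPM per kb (SD, n = 4) in LLC1 and 886 ± 263 CPM per kb in PBS mice. Hba-a1 followed at 876 ± 515 and 644 ± 248, Hbb-bt at 801 ± 494 and 615 ± 191, and Hba-a2 at 703 ± 420 and 489 ± 211 CPM per kb. Neighbours in this order lay within 1 SD of each other in both groups. Alas2 was far below, at 23.3 ± 13.0 CPM per kb in LLC1 and 20.6 ± 6.38 CPM per kb in PBS mice. The spread over mice was wider in the tumor-bearing group for every gene, with coefficients of variation of 55.7 to 62.4% in LLC1 and 29.7 to 43.0% in PBS mice, a difference that was not tested. It rested on LLC1 1-2, without which, an alternative chosen after seeing the data, the LLC1 values were 29.3 to 32.8% and lay below those of PBS mice for Hba-a1, Hba-a2 and Hbb-bs.

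The alpha and beta globins, whose proteins pair in equal numbers, varied together. Over the 8 mice, log2 CPM of the summed alpha pair and of the summed beta pair had a Pearson r of 0.969 (permutation p = 0.000422) and a Spearman rho of 0.857 (permutation p = 0.0107). Alas2 and summed hemoglobin had an r of 0.977 (permutation p = 9.92e-05) and a rho of 0.929 (permutation p = 0.00223). Adjusted over these 2 relations, the p-values of r were 0.000422 and 0.000198 by permutation, and those of rho were 0.0107 and 0.00446. The 2 mice farthest from the median were LLC1 1-2 and PBS 2-1. Without them r was 0.869 (permutation p = 0.0278) for alpha with beta and 0.922 (permutation p = 0.00556, adjusted 0.0111) for Alas2 with hemoglobin, while rho was 0.657 (permutation p = 0.175) and 0.829 (permutation p = 0.0583, adjusted 0.117). The rank relations therefore rested in part on those mice, and the groups of 4 are too small for a value within each. All mice share 1 library preparation type, and the level of each gene depends on the same library size.

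The ratios between the genes were steadier than their levels. The ratio of alpha to beta counts was 0.747, 0.803, 0.770 and 0.786 in LLC1 mice and 0.558, 0.727, 0.778 and 0.730 in PBS mice. PBS 1-1 stood apart below the others, and the means were 0.777 ± 0.0237 in LLC1 and 0.698 ± 0.0960 in PBS mice (SD, n = 4). Without PBS 1-1 the PBS values ran from 0.727 to 0.778 and overlapped those of LLC1. Within the pairs, counts of Hba-a2 per count of Hba-a1 were 0.664, 0.659, 0.646 and 0.657 in LLC1 and 0.539, 0.648, 0.644 and 0.633 in PBS mice, again with PBS 1-1 lowest. Counts of Hbb-bt per count of Hbb-bs were 0.574, 0.600, 0.575 and 0.571 in LLC1 and 0.526, 0.590, 0.575 and 0.571 in PBS mice.

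The ratio of Alas2 to hemoglobin did not overlap between the groups. Alas2 had 1.96, 2.20, 2.17 and 2.07 counts per 100 hemoglobin counts in LLC1 mice and 2.27, 2.62, 2.31 and 2.53 in PBS mice, so the 4 LLC1 values lay below the 4 PBS values. Means were 2.10 ± 0.106 and 2.43 ± 0.169 (SD, n = 4), a ratio of 0.863. The closest mice were within counting error, since the 95% Wilson interval of LLC1 1-3 (2.05 to 2.35) overlapped that of PBS 1-1 (2.06 to 2.50). Of all genes tested, 0.652% had a ratio to summed hemoglobin that was lower in all LLC1 than in all PBS mice, and 0.67% had groups that did not overlap in either direction. These shares are no chance rate for a gene that follows hemoglobin. The ratios of most genes varied mainly with hemoglobin itself (SD of log2 level over mice 0.627), whose groups overlapped. With log2 summed hemoglobin added to edgeR's model as a covariate, an alternative chosen after seeing the data, the log2 fold change of Alas2 was -0.19 ± 0.07 (SE) with an FDR of 0.141, which is not called, while 6.21% of the genes tested were. Lower Alas2 per hemoglobin count was therefore seen in 4 of 4 LLC1 mice but did not pass the correction.

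**Figure D3:**
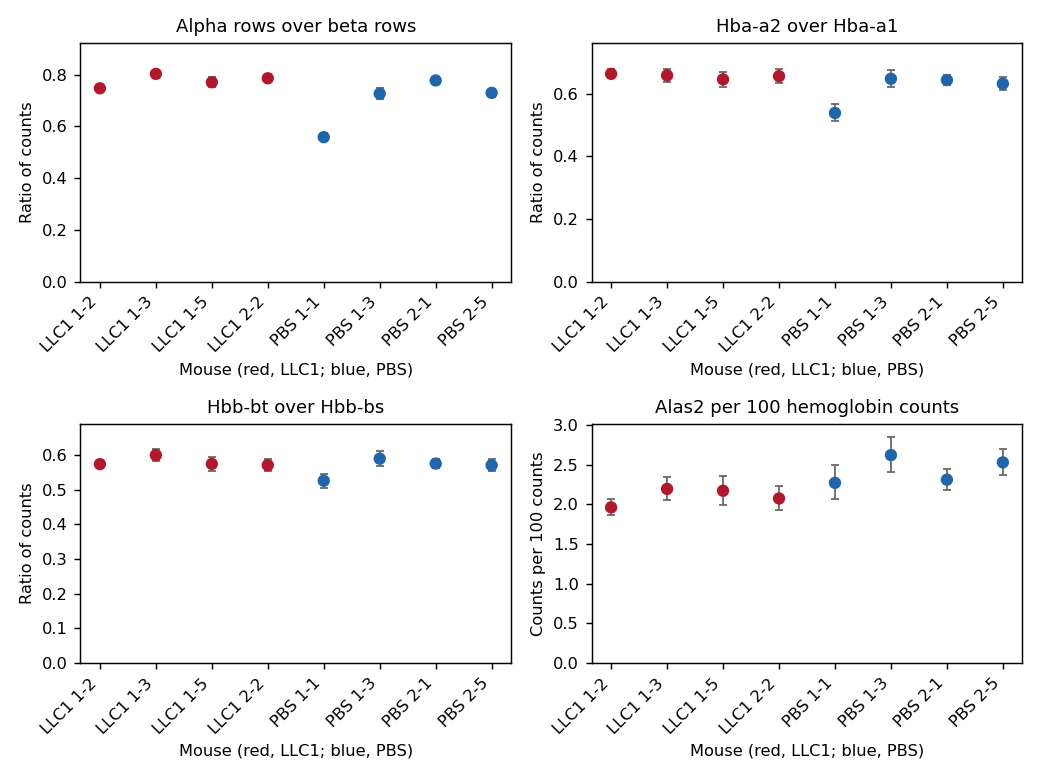
Ratios of counts in each mouse, with LLC1 in red, PBS in blue and bars for 95% intervals from counting error. PBS 1-1 was lowest for alpha over beta (0.558), Hba-a2 over Hba-a1 (0.539) and Hbb-bt over Hbb-bs (0.526), and Alas2 per 100 hemoglobin counts was at most 2.20 in LLC1 and at least 2.27 in PBS mice.

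The genes most like hemoglobin across the mice were ranked by the SD over the 8 mice of the log2 ratio of a gene to summed hemoglobin. This measure is 0 for a gene in fixed proportion to hemoglobin, had a median of 0.654 over 15060 genes ranked, and would be 0.627 for a gene that did not vary at all. With the 4 globin genes that form the sum left out of the ranking, Alas2 was first with an SD of 0.139. Slc4a1, the band 3 anion exchanger of the red cell membrane, ranked 5 with an SD of 0.298 on 11 to 39 counts per mouse. Its level was 2.12, 1.91, 0.875 and 1.01 CPM in LLC1 and 0.944, 1.19, 2.29 and 1.24 CPM in PBS mice, with PBS 2-1 highest.

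Others among the 10 genes ranked highest were Gm12185 (SD 0.198), the noncoding RNA Rmst (0.226), Ube2l6 (0.298), the globin pseudogene Hbb-bh3 (0.308), the exonuclease gene Isg20 (0.315), the macrophage lectin gene Clec10a (0.346) and Tgtp1 (0.351). Gm12185 and Tgtp1 overlap on chromosome 11, so their reads may not be separable. Ube2l6 encodes the conjugating enzyme of ISG15, and it and Isg20 were also in the list of reticulocyte-abundant genes. Only 6 genes had an SD under 0.3 and 25 under 0.4. With each mouse left out in turn, an alternative chosen after seeing the data, Alas2 ranked between 1 and 2 and Slc4a1 between 5 and 12. Without LLC1 1-2, 7 of the 10 left the first 10. Gm12185 at rank 11 and Slc4a1 at 12 moved little among 15060 genes, and Rmst was at 18, Ube2l6 at 26 and Clec10a at 48. Hbb-bh3 fell to 479 and Tgtp1 to 1716, so the place of these 2 rested on that mouse. Without LLC1 1-5, Slc4a1 (rank 11), Clec10a (13), Hbb-bh3 (14), Isg20 (17) and Tgtp1 (36) also left the first 10. Clec10a and Tgtp1 did so too without PBS 1-1, PBS 2-1 or PBS 2-5. None of the 10 was called between LLC1 and PBS mice in edgeR, where 8.73% of all genes tested were. They were chosen in these same mice for following hemoglobin, whose groups overlapped, so this is no separate result.

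**Figure D4:**
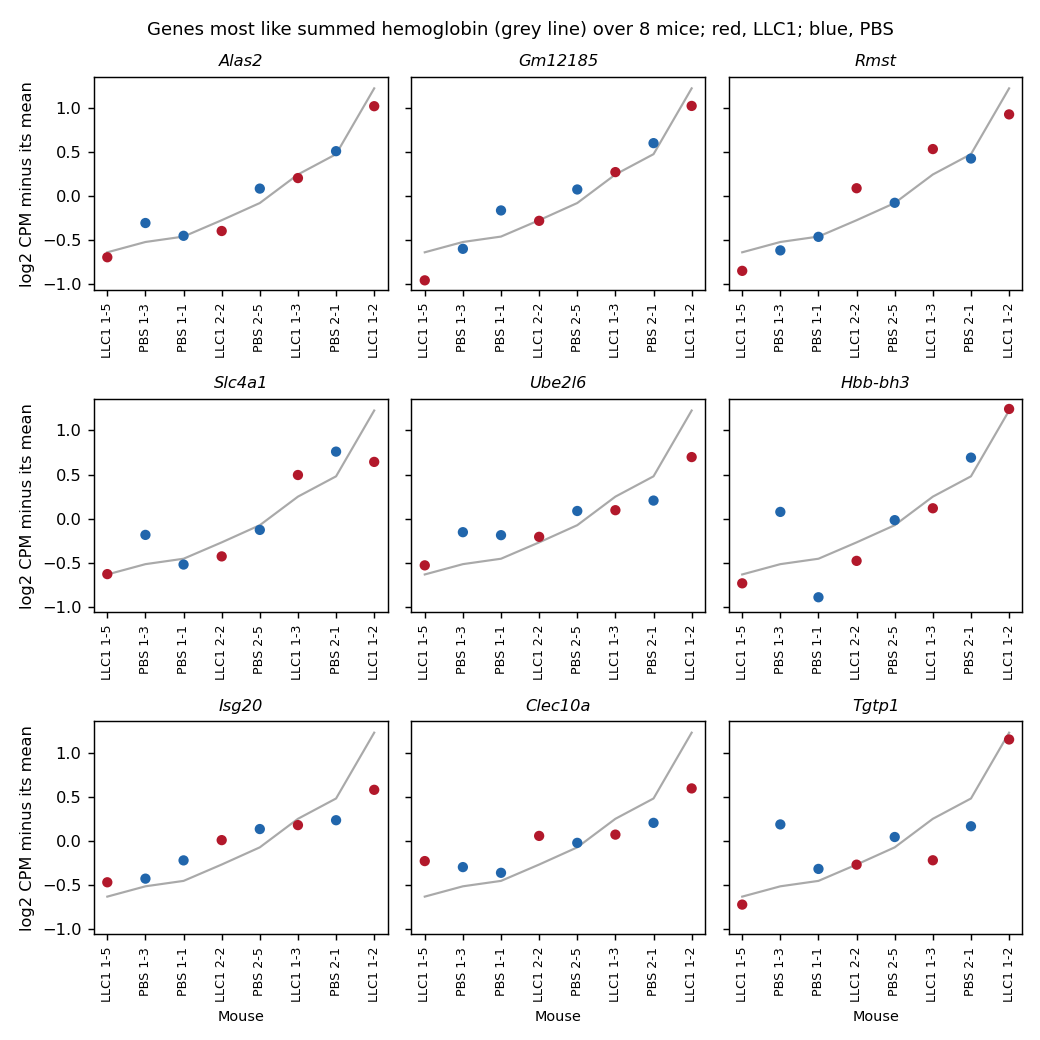
Log2 CPM minus its mean over mice for genes among the 10 most like hemoglobin (points, LLC1 red and PBS blue) and for summed hemoglobin (grey line), with mice ordered by hemoglobin. Points of Alas2 (SD of the log2 ratio 0.139) stayed near the line over the whole range, while those of Tgtp1 (0.351) followed it mainly at LLC1 1-2.

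Other globins were scarce. Of 7 embryonic or lesser globin genes, Hba-x alone passed the filter, and Hbb-bh0, Hbb-bh1 and Hbb-bh2 had 0 counts in all mice. Hba-x, the embryonic zeta-type chain, stood at 19.8, 9.88, 5.42 and 7.19 CPM in LLC1 and 6.01, 10.7, 21.01 and 8.68 CPM in PBS mice, with overlapping groups and a log2 fold change of -0.17 ± 0.41 (SE, edgeR FDR 0.830). It shared 0 stretches of 30 bases with the adult alpha transcripts. Myoglobin (Mb), the oxygen store of the muscle cell, stood at 12392 ± 865 CPM in LLC1 and 11557 ± 299 CPM in PBS mice (SD, n = 4, edgeR FDR 0.368), and its ratio to hemoglobin had an SD of 0.589.

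Other red cell genes differed in how closely they followed hemoglobin, and several of them are also used by other cells. Of 15 red cell membrane genes 6 were tested, 2 were called higher and 0 lower in LLC1, where 4.12% of all genes were called higher. The called genes were Sptb, encoding beta-spectrin (log2 fold change 0.29 ± 0.06 SE, edgeR FDR 0.0144), and Rhd, a blood group antigen gene (0.87 ± 0.16 SE, edgeR FDR 0.00922). Sptb stood at 330, 349, 328 and 333 CPM in LLC1 and 272, 268, 296 and 264 CPM in PBS mice. Their ratios to hemoglobin had SDs of 0.589 and 0.734, against 0.298 for Slc4a1. Without LLC1 1-3, without PBS 1-3 or with total counts only, 1 gene of the list was called, and the median log2 fold change of the 6 tested was 0.07. Epb42, a further defining red cell gene, had at most 7 counts per mouse and was below the filter.

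Among regulators of erythroid precursors, Klf1 had at most 5 counts and Gata1 at most 2 counts in any mouse, and Hemgn at most 1. Trim10 had 1 to 16 counts per mouse, highest in LLC1 1-2 at 1.06 CPM, and Epor had 8 to 28. Tal1, a transcription factor that endothelial cells can also express, had 75 to 109 counts per mouse and stood at 5.09 ± 0.353 CPM in LLC1 and 6.19 ± 0.422 CPM in PBS mice (SD, n = 4, edgeR FDR 0.156). Of 10 such genes 9 had a row in the table, 2 were tested (Tal1 and Epor) and 0 were called, where 8.73% of all genes tested were. Of the 14 reticulocyte-abundant genes in the table all 14 were tested and 0 called, against the same share over all genes, with a median log2 fold change of 0.12.

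Of 11 other genes of heme synthesis all were tested and 0 were called, where 8.73% of all genes tested were. The SDs of their log2 ratios to hemoglobin ran from 0.557 to 0.767, around the median of 0.654 of all genes ranked. Alas1, the housekeeping counterpart of Alas2, stood at 231, 206, 252 and 191 CPM in LLC1 and 268, 278, 262 and 213 CPM in PBS mice, a log2 fold change of -0.21 ± 0.10 (SE, edgeR FDR 0.207). Fech, which inserts iron into the heme ring, stood at 150 ± 6.33 CPM in LLC1 and 133 ± 9.48 CPM in PBS mice (SD, n = 4, edgeR FDR 0.122). The median log2 fold change of the pathway was 0.04, beside -0.01 for all genes tested.

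Markers of other cells that blood or ventricle could hold are given beside hemoglobin. The 14 neutrophil markers together stood at 9.31 to 14.0 CPM in LLC1 and 5.25 to 7.43 CPM in PBS mice, with Elane at 0, and 3 of the 5 tested were called higher, where 4.12% of all genes tested were. These were S100a8 (log2 fold change 1.76 ± 0.45 SE, edgeR FDR 0.0337) and S100a9 (1.72 ± 0.33 SE, edgeR FDR 0.0109), the calprotectin subunits, and Lcn2 (0.99 ± 0.20 SE, edgeR FDR 0.0118), encoding lipocalin-2. Lcn2 alone held 6.45 of the mean sum of 12.2 CPM in LLC1 and 3.22 of 6.47 CPM in PBS mice. Camp, Ngp and Mpo, with at most 3, 1 and 1 counts per mouse, were no higher in the mean of the LLC1 mice. Retnlg, Ltf, Cxcr2, Ly6g, Mmp8, Csf3r and Mmp9 were higher in that mean and were not called or not tested. S100a8 and S100a9 had at most 18 and 22 counts per mouse and passed the low-count filter only through the LLC1 mice, where they were higher, so their calls are not independent of the filter and the count is a description. Of the list, 2 markers were called with DESeq2 or without any 1 of LLC1 1-2, LLC1 1-3, LLC1 1-5, PBS 1-3, PBS 2-1 or PBS 2-5, and 1 with the filter of at least 10 counts in every mouse. The 13 platelet markers together stood at 17.999 to 26.46 CPM in LLC1 and 25.3 to 29.9 CPM in PBS mice, and 1 of 7 tested, Pf4, was called lower (-0.59 ± 0.11 SE, edgeR FDR 0.0104), where 4.61% of all genes were. Without PBS 1-1, or with the filter of at least 10 counts in every mouse, 2 platelet markers were called. Of the B cell markers 1 of 3 tested was called lower (Blk, -0.98 ± 0.17 SE, edgeR FDR 0.00623), beside the same 4.61% of all genes. Of the T and NK cell markers 1 was tested and 0 called, where 8.73% of all genes tested were called in either direction. Of the 8 endothelial markers, all tested, Kdr (-0.61 ± 0.08 SE, edgeR FDR 0.00132) and Emcn (-0.31 ± 0.07 SE, edgeR FDR 0.0205) were called lower, again beside 4.61% of all genes, with 1 called without LLC1 1-3, LLC1 2-2 or PBS 1-3, 4 with DESeq2 and 5 without PBS 1-1. Of the cardiomyocyte markers 1 of 10, Myh6, was called higher (0.24 ± 0.06 SE, edgeR FDR 0.0209), beside 4.12% of all genes, with 0 called without LLC1 1-3, LLC1 1-5, PBS 1-3 or PBS 2-1 or with total counts only, 2 with limma-voom, DESeq2 or edgeR's robust option, and 3 without PBS 1-1. The 4 atrial markers summed to 113 to 339 CPM in LLC1 and 123 to 249 CPM in PBS mice. Of these, 0 of 3 tested were called, where 8.73% of all genes tested were, and 1 was called without PBS 2-5. The median log2 fold changes of tested markers were -0.33 for platelets, -0.54 for B cells, -0.22 for endothelium and 0.11 for cardiomyocytes. With summed hemoglobin as a covariate, edgeR called 1001 in place of 1406 of all genes, and the count called in each of these lists was the same as without it (10 in all with the 2 red cell membrane genes). The part of differing cell content other than red cells in these list values was not tested.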

How the data were processed

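A core facility made libraries from ventricular RNA with an Illumina RNA kit and read them as 150-base paired ends. The submitters' processing notes name CASAVA, STAR, featureCounts and build mm10, without versions. The authors deposited whole-number read counts per gene for each mouse, without normalization, and annotation, strand and multi-mapping settings are not given in the sources used here. Groups were taken from the labels. Library totals are given in the report and limit precision to counting error and mouse-to-mouse spread.

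Counts were analysed with edgeR 4.0.16 in R 4.3.3 (filterByExpr, TMM, glmQLFit and glmQLFTest, Benjamini-Hochberg over all genes tested, FDR under 0.05 as a call). Relations and ratios were computed in Python 3.11.15 with scipy 1.17.1, numpy 2.4.6 and pandas 2.3.3, and figures were drawn with matplotlib 3.10.9. Intervals of shares are 95% Wilson intervals, and those of the pair ratios were converted from them. Permutation p-values of correlations enumerate all pairings of mice. The steps were tested on simulated data, where edgeR called 170 of 200 genes changed 2-fold and made 14 false calls at the same FDR threshold.

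The genes named are the 5 genes; from each other list those called and the 3 highest in mean CPM; and the 10 genes most like summed hemoglobin, with a mean of at least 1 CPM. Epb42, Hemgn, Gata1, Elane, Camp, Ngp, Mpo, Retnlg, Ltf, Cxcr2, Ly6g, Mmp8, Ttn, Hbb-bh1 and Hbb-bh2, and the Hba-x ratio, were added after their values were seen. The genes and lists were chosen with earlier results of these data known. Tent5c was counted as Fam46c, its symbol in the table. Values of some genes of the lists and ranking are not reported here, while counts of genes include them.

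Alternatives were DESeq2 1.42.0, limma-voom (limma 3.58.1), upper-quartile factors, total counts only, library sizes without the globin genes, 2 other low-count filters (at least 1 count in any mouse, at least 10 counts in every mouse), edgeR's robust option, a covariate for the leading digit of the replicate code or for summed hemoglobin, and each mouse left out. Promoters came from RefSeq (GRCm38.p6) and transcripts from GENCODE M21.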

Additional observations from a re-analysis of the deposited data

Results flagged for a closer look

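Of 42 sets of 4 mice examined for a value far from the others, 2 held one, and chance alone gives about 1 in 20. The ratio of Hba-a2 to Hba-a1 counts in PBS 1-1 was 0.539, below 0.633 to 0.648 in the other PBS mice. The ratio of Hbb-bt to Hbb-bs counts in LLC1 1-3 was 0.600, above 0.571 to 0.575 in the other LLC1 mice. Both ratios depend on how reads shared by near-identical genes were counted, and the part of that in these values was not tested.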

How the results depend on the processing

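Across 17 alternatives, 0 of the 5 genes were called. With each mouse left out, log2 fold changes ranged from -0.029 to 0.72 for Hba-a1, 0.04 to 0.83 for Hba-a2, -0.17 to 0.56 for Hbb-bs, -0.13 to 0.60 for Hbb-bt and -0.27 to 0.38 for Alas2, the values below 0 all coming from the fit without LLC1 1-2. With summed hemoglobin as a covariate, chosen after seeing the data, that of Alas2 was -0.19. Other settings kept the direction of all 5. The count of all genes called, 1406, ranged from 546 to 1923 with 1 mouse left out (546 without PBS 1-3, 620 without LLC1 1-3, 686 without LLC1 1-5, 731 without LLC1 1-2 and 811 without LLC1 2-2), with fewer samples in each fit. The count of called genes in the other lists, 10, ranged from 6 (without LLC1 1-3 or PBS 1-3) to 16 (without PBS 1-1), and the cause was not tested. The difference of the group means of log2 summed hemoglobin CPM, 0.28, ranged from -0.08 without LLC1 1-2 to 0.54 without LLC1 1-5. No paired analysis was possible because the groups share only 1 replicate code, carried by different animals. Low counts limit S100a8, S100a9, Slc4a1, Klf1 and Gata1.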

Other observations

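The embryonic gene Hba-x, chosen after its values were seen, had 0.914, 0.860, 0.890 and 0.909 counts per 100 adult alpha counts in LLC1 mice and 1.06, 1.67, 1.59 and 0.998 in PBS mice. PBS 1-3 and PBS 2-1 were highest. The 95% Wilson intervals of the LLC1 mice, such as 0.815 to 1.02 for LLC1 1-2, all overlapped those of PBS 1-1 (0.838 to 1.34) and PBS 2-5 (0.849 to 1.17). Per 100 counts of all 4 adult globin genes the groups overlapped, at 0.391, 0.383, 0.387 and 0.4 in LLC1 and 0.38, 0.703, 0.694 and 0.421 in PBS mice. With summed hemoglobin as a covariate, the log2 fold change of Hba-x was -0.53 ± 0.19 (SE, edgeR FDR 0.125), which is not called.

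Counts of the pseudogene Hbb-bh3 per 100 beta globin counts were 0.623, 0.580, 0.582 and 0.544 in LLC1 mice and 0.406, 0.918, 0.726 and 0.634 in PBS mice, with both the lowest and the highest value in the PBS group.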
